A study of Arabidopsis thaliana with 11 samples.

Results

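A set of 30 Arabidopsis thaliana loci, known in the array's gene table only by their locus numbers, gave a lower signal in the expanding stem than in both leaf and flower. They were taken from 11933 probe sets (11798 distinct loci) that the platform table pairs with exactly 1 gene carrying no other symbol, and so made up 0.251% of these. The members were chosen by their deposited signals in all 11 arrays. The rule set signals under 100 to 100 and asked that the lowest of the 7 leaf and flower arrays be at least 2 times the highest of the 4 stem arrays. That ratio is called the margin below. The rule read every array, so the lower stem signal of the members is a description and carries no test. Only the order of leaf and flower, and the growth site, were not set by the rule and could be tested.

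All samples were wild-type Columbia-0 plants hybridised to ATH1 GeneChips, which read each gene with a set of short probes. Expanding leaves (3 arrays) were taken 15 days after germination. The upper 2 inches of the expanding stem, freed of siliques and pedicels (4 arrays), and open flowers together with closed buds (4 arrays) were taken at 29 days. Plants grew 4 to a pot, with days of 25 °C and nights of 20 °C, and were sampled at the middle of a 16 h light period, which the labels leave unstated for flower replicate 4. By the labels, leaf replicate 1, stem replicates 1 and 2 and flower replicates 1 and 2 came from a growth chamber. Leaf replicates 2 and 3, stem replicate 3 and flower replicates 3 and 4 were labelled greenhouse. The labels also give each array a scaling factor to the reference gene GapC. These factors are exchanged between stem replicates 2 and 3, and between flower replicates 2 and 3, relative to the GapC signals of the columns. Whether the factors or the arrays were swapped is not known. The sites of these arrays are therefore uncertain, and all site results follow the labels. Stem replicate 4 has a greenhouse code in its title and a growth chamber in its protocol. Trizol extraction was the only step stated for leaf RNA, whereas RNA of the other organs also passed a silica column. Leaf therefore differs from stem and flower in plant age and RNA preparation as well as in tissue, and these cannot be told apart. Whether replicates were pools or individual plants is not stated, and each p-value reflects the spread of these samples alone.

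Leaves and floral organs are lateral organs, formed at the flanks of a meristem, and have an upper and a lower side. The young stem is an axis of elongating cortex, epidermis and vascular bundles, in which xylem and fibre cells lay down thick secondary walls. The products of the 30 loci are not annotated in the tables used here: all 30 are protein-coding in the RefSeq gene table (TAIR10.1) and 0 have a name other than the locus, so no role is given to any of them.

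The same numerical rule was met by 88 of 22746 probe sets. Besides the 30 bare loci these were 53 probe sets without a paired gene and 5 genes that have a symbol. STOMAGEN, a secreted peptide that promotes stomata, gave signals of 1084 to 1438 in leaf, 84.9 to 199 in stem and 772 to 1207 in flower. YAB3, a YABBY factor of the lower side of lateral organs, gave 579 to 644 in leaf, 9.6 to 113 in stem and 279 to 495 in flower. The others were RR16, a type-A response regulator of cytokinin signalling, SBT1.3, a subtilisin-like protease, and ARPN, a plantacyanin, a small blue copper protein. Turning the rule round, 45 bare-locus probe sets were low only in leaf and 14 low only in flower.

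The median signal per array was 192.1 to 251.2, and arrays of 1 tissue correlated at 0.918 or above, against at most 0.876 between tissues. Stem replicate 3 stood apart in RNA quality, with 3′ to 5′ signal ratios of 12.2 for actin and 13.05 for GAPDH. It gave the lowest of the 4 stem signals at 9 of the 30 loci and the highest at 7. Without it 39 loci met the rule, as many as without stem replicate 4 or without leaf replicate 1. Leaving out an array can only loosen the rule, so all 30 were certain to be kept. Flower replicate 3 also had higher ratios (8.23 for actin and 5.45 for GAPDH) than the other flower arrays (at most 4.49 and 3.86), and without it the counts called between flower and leaf stayed at 5 higher and 2 lower. The tissue labels were checked against marker genes. All 3 measured genes of secondary wall synthesis (of 7 listed) were highest in stem, with summed signals of 3677 to 8184 in stem, 357.0 to 460.9 in leaf and 391.0 to 561.5 in flower. All 7 tapetum and pollen genes were highest in flower, where they summed to 8684 to 10237, against 295 to 357 in leaf and 186 to 291 in stem. Of 8 listed photosynthetic genes 4 were measured, and 2 of these (RCA and PRK) were highest in leaf. SBPASE overlapped, with 15982 to 21843 in leaf and 10256 to 22110 in stem. LHCB4.1 also overlapped, with 34492 to 46992 in leaf and 21420 to 36108 in stem. The 4 summed to 118199 to 130881 in leaf, 65597 to 104743 in stem and 29676 to 43252 in flower. These genes were thus lowest in flower and not in stem. The only measured guard-cell marker of 3 epidermal genes, FAMA, had 304 to 330 in leaf, 140.5 to 271.6 in stem and 197.5 to 235.4 in flower. The only measured phloem gene of 3, SWEET11, had 3444 to 4641 in leaf, 670 to 1019 in stem and 593 to 1148 in flower. None of the 5 floral organ genes was measured here by a named probe set. In these bulk tissues, fewer cells of a type and less RNA per cell cannot be told apart, and the part of tissue composition in the members' signals was not tested.

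The margins ran from 2.00 to 18.0 with a median of 2.49. Only 5 loci reached a margin of 4, and 15 lay under 2.5, close to the threshold. In 8 loci all 4 stem arrays were under 100, in 6 some were, and in 16 none was. The stem array with the highest signal was stem replicate 1 for 11 loci, replicate 2 for 6, replicate 3 for 7 and replicate 4 for 6. That array set the margin except in the 8 loci with all stem arrays under 100, where the floor did. The lowest of the 7 other arrays was a leaf array for 18 loci and a flower array for 12, and leaf replicate 1 alone held it for 10.

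**Figure D1:**
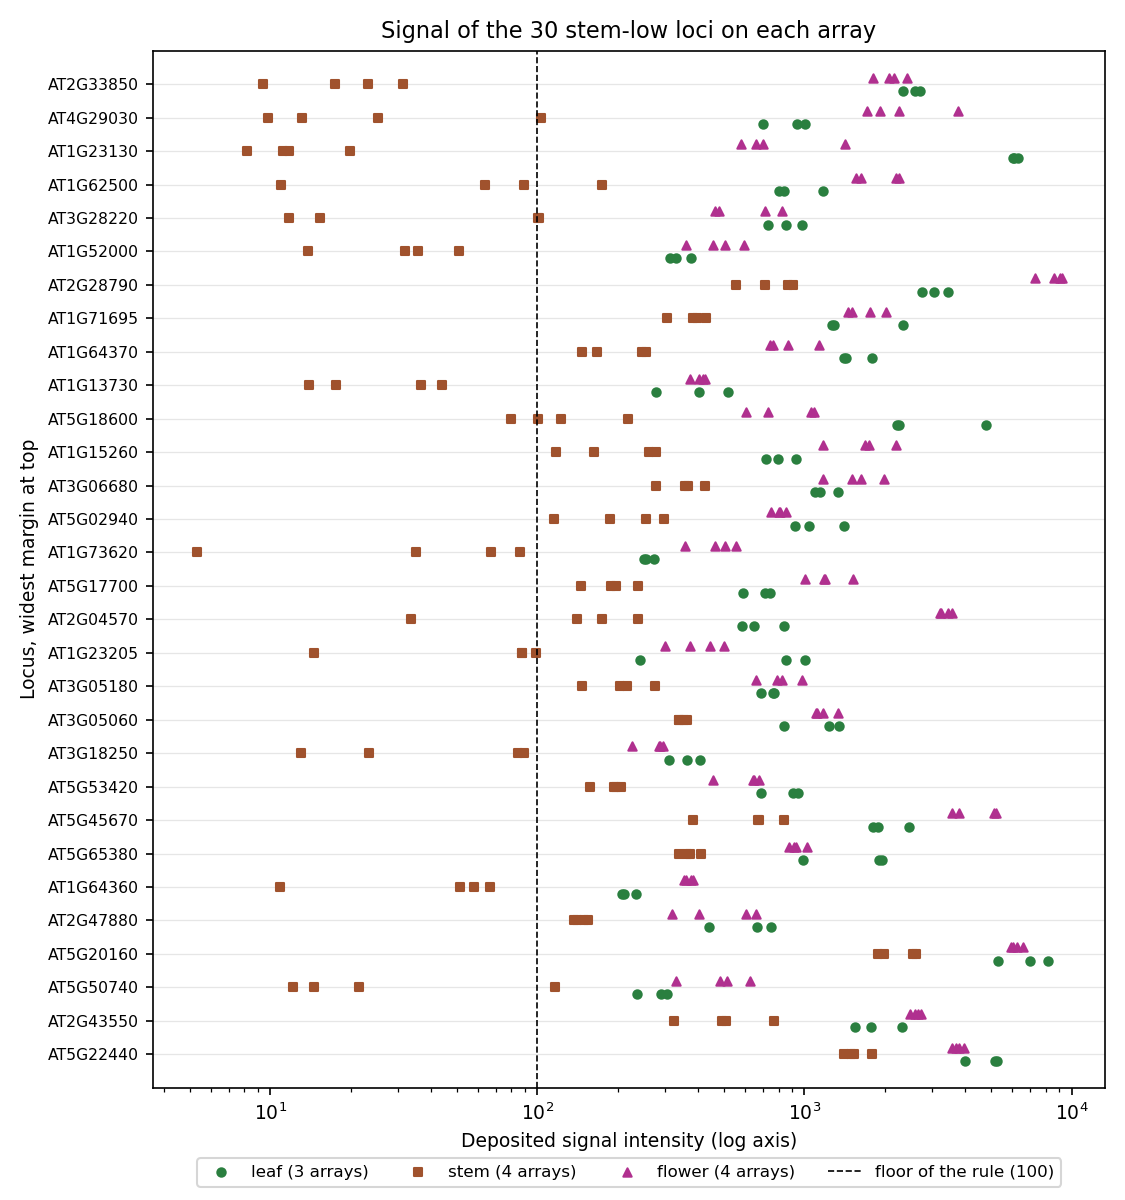
Deposited signal intensity (log axis) of the 30 loci on each of the 11 arrays, 1 row per locus, with the widest margin at the top. Each point is 1 array, the dashed line is the floor of 100 used by the rule, and signals are to be compared along a row and not between rows, since probe sets differ in how strongly they bind. In every row the 4 stem squares lie left of all leaf circles and flower triangles, as the rule required.

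AT2G33850 had by far the widest margin, 18.0. Its leaf signals were 2347, 2594 and 2709, its stem signals 9.4, 31.5, 17.4 and 23.2, and its flower signals 1804, 2161, 2068 and 2418. Leaf and flower overlapped, while all 4 stem arrays lay well under the floor. AT1G23130 (margin 5.79) was likewise under 100 on every stem array, with 11.7, 8.2, 11.2 and 19.8. In leaf it gave 6023, 6315 and 6097, a narrow range, and in flower 1417, 661, 579 and 698. Its margin was set by the weakest flower array, and no flower array came near the leaf level.

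For the other loci with all stem arrays under 100 the floor stood in for the stem value, so the margin is a lower bound. AT1G52000 (margin 3.13) gave 313 to 375 in leaf, 13.9 to 50.9 in stem and 359 to 594 in flower. AT1G13730 (2.77) gave 277, 516 and 402 in leaf, at most 44.1 in stem, and 373 to 423 in flower. In both loci leaf and flower overlapped. AT1G73620 (2.51) gave 251 to 273 in leaf, 5.3 to 86.4 in stem and 358 to 555 in flower. AT3G18250 (2.26) gave 312 to 406 in leaf, 13.0 to 88.8 in stem and 226 to 295 in flower. These 2 loci lay on opposite sides of the leaf and flower order, AT1G73620 with every flower array above every leaf array and AT3G18250 with the reverse. AT1G64360 (2.08) and AT1G23205 (2.42) completed the group and are described with their neighbours and with the growth sites.

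In 6 loci the stem arrays lay on both sides of 100. AT4G29030 (margin 6.82) had stem signals of 103, 13.2, 9.8 and 25.4, with leaf at 701, 1009 and 941 and flower at 3772, 1918, 2264 and 1713. Its highest stem array was replicate 1, and the other 3 were under 30. AT1G62500 (4.58) spread over 89.3, 63.5, 11 and 175 in stem, with 841, 1173 and 801 in leaf and 1624, 1563, 2194 and 2263 in flower. Stem replicate 4 was the highest stem array there and replicate 3 the lowest. AT3G28220 (4.56) split the stem arrays into replicates 1 and 2, at 102 and 100, and replicates 3 and 4, at 15.4 and 11.7. Its leaf signals were 732, 857 and 982 and its flower signals 480, 824, 713 and 464, which overlapped.

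The remaining 3 of these 6 were AT5G18600 (margin 2.75), AT2G04570 (2.445) and AT5G50740 (2.03). AT5G50740 was under 100 on 3 stem arrays, at 12.2, 21.4 and 14.6, and reached 116.5 on stem replicate 3 alone, against 290, 305 and 237 in leaf and 513, 484, 628 and 332 in flower. A second probe set for the same locus was also read: it gave 183 to 192 in leaf, 27.9 to 64.0 in stem and 135 to 258 in flower. Its stem arrays too lay below every leaf and flower array, although with the floor its margin was 1.35 and it did not meet the rule.

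In the 16 loci with all stem arrays at 100 or more, the stem transcript was reduced and still measured. AT2G28790 (margin 3.03) gave 2756, 3451 and 3065 in leaf, 908, 553, 710 and 872 in stem and 9174, 9023, 8625 and 7274 in flower. Its flower arrays lay above all leaf arrays, and these above all stem arrays. AT1G71695 (2.95) gave 1266 to 2334 in leaf, 307 to 430 in stem and 1461 to 2024 in flower. AT5G20160 (2.04) gave 1893, 1988, 2605 and 2556 in stem against 5311, 8155 and 6977 in leaf and 6574, 5960, 6245 and 6046 in flower. Leaf and flower of AT1G71695 and AT5G20160 overlapped.

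A further 6 of the 16 had margins of 2.21 to 2.60 and no call between leaf and flower at a fold of 2. AT3G06680 (2.60) gave 1098 to 1340 in leaf, 278 to 423 in stem and 1173 to 1986 in flower. AT5G02940 (2.53) gave 924 to 1412 in leaf, 115 to 297 in stem and 752 to 855 in flower. AT5G17700 (2.47) gave 588 to 740 in leaf, 146 to 238 in stem and 1002 to 1514 in flower. Flower lay above leaf in AT5G17700, leaf above flower in AT5G02940, and the groups overlapped in AT3G06680. AT3G05180 (2.39) gave 686 to 770 in leaf, 146 to 276 in stem and 660 to 976 in flower. AT3G05060 (2.31) gave 837 to 1342 in leaf, 339 to 363 in stem and 1110 to 1338 in flower. AT5G53420 (2.21) gave 685 to 950 in leaf, 158 to 206 in stem and 455 to 676 in flower. The 4 stem arrays of AT3G05060 lay within a far narrower range than its 3 leaf arrays, and its leaf and flower overlapped, as did those of AT3G05180. In AT5G53420 every leaf array was above every flower array.

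The threshold cut through a continuous run of values. Just inside it were AT5G22440 (margin 2.00), with 4000, 5244 and 5176 in leaf, 1527, 1401, 1496 and 1783 in stem and 3698, 3574, 3807 and 3958 in flower. Next came AT2G43550 (2.01), with 1546.5 to 2317 in leaf, 326 to 770 in stem and 2474 to 2738 in flower. AT2G47880 (2.05) had 440 to 749 in leaf, 137 to 155 in stem and 318 to 659 in flower. Just outside were AT3G14600 (1.99), AT1G48460 (1.99) and AT3G56060 (1.965). AT3G14600 had 5052 to 5424 in leaf, 1926 to 2472 in stem and 4922 to 5648 in flower, a pattern much like that of AT5G22440 with flower nearer to leaf. Membership also moved with the scaling of the arrays. The reference gene GapC, to which the labels state a scaling that the deposited values do not carry, gave 10659 to 14103 in leaf, 7506 to 9116 in stem and 6316 to 9475 in flower. With every array scaled to GapC, leaf signals fell relative to stem and 12 loci met the rule, all of them among the 30.

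**Figure D2:**
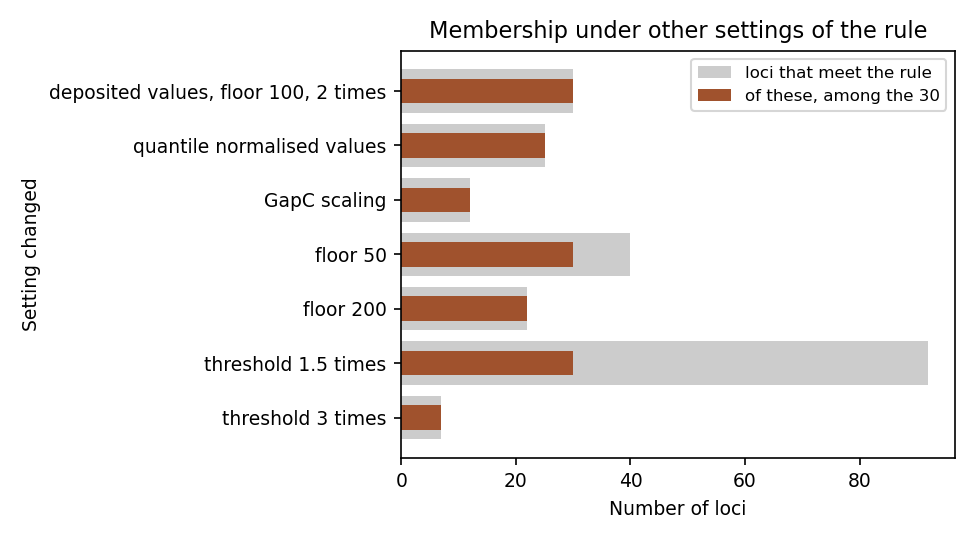
Number of bare-locus probe sets that met the rule (grey bars, horizontal axis) when 1 setting of the rule was changed, with those among the 30 members overlaid in brown. The count was 92 at a threshold of 1.5, 7 at 3, and 12 with GapC scaling.

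Leaf and flower were compared to ask whether loci lower in stem than in both leaf and flower had a like level in these. Of the 30, 5 loci were higher in flower, 2 were lower in flower and 23 were not called. The largest difference upward was at AT2G04570, 5.16-fold higher in flower, and the largest downward at AT1G23130, 7.11-fold lower in flower. A locus was called in limma at a Benjamini-Hochberg adjusted p under 0.05 over all 17526 probe sets tested and a log2 difference of at least 1 in quantile-normalised log2(signal + 32), on which scale all folds here are given. All 30 members passed the filter on low signals, as the rule already asked for leaf and flower signals above it. They ranked at a mean percentile of 52.2 or higher over the leaf arrays and 52.6 or higher over the flower arrays. The tested probe sets include weaker ones, so the shares below are not matched for signal level. Over all tested probe sets 9.17% were called higher in flower and 9.27% lower, beside 16.7% and 6.67% of the members, and the median log2 difference was 0.13 for the members and -0.02 for all. Leaf and flower arrays did not overlap in 18 of 30 loci (11 with flower above, 7 with leaf above), or 60.0%, where 43.2% of all tested probe sets had no overlap.

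AT2G04570 gave 583, 837 and 649 in leaf, 238, 141, 33.7 and 174 in stem, and 3568, 3435, 3226 and 3238 in flower. The flower arrays were close together and far above all others, with a log2 difference of 2.37 ± 0.36 (SE; limma adjusted p = 0.000173). AT2G28790, whose signals are given above, differed by 1.70 ± 0.17 (limma adjusted p = 6.5e-06), a 3.24-fold higher level in flower. AT4G29030 differed by 1.45 ± 0.38 (limma adjusted p = 0.0101), with flower replicate 1 well above the other 3 flower arrays. With a pseudocount of 1 in place of 32 this call was lost (adjusted p = 0.0959).

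AT5G45670 (margin 2.15) gave 2466, 1890 and 1811 in leaf, 674, 383, 842 and 668 in stem, and 3783, 3558, 5148 and 5204 in flower. Its log2 difference was 1.26 ± 0.23 (limma adjusted p = 0.000925), and the 2 flower arrays labelled greenhouse were the highest. AT1G15260 (margin 2.60) gave 933, 799 and 720 in leaf, 277, 163, 118 and 262 in stem, and 1689, 2198, 1175 and 1745 in flower. Its difference of 1.05 ± 0.27 (limma adjusted p = 0.00825) lay just past the fold threshold. The call was lost without leaf replicate 3 (0.97), without flower replicate 2 (0.91), with growth site as a covariate (0.96), with a pseudocount of 100 (0.996) and with the replicate number as a block (0.979), each time with an adjusted p still under 0.05. With median centring AT5G45670 (0.78) and AT1G15260 (0.70) both fell under the fold threshold.

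The 2 loci lower in flower were AT1G23130 and AT5G18600. AT1G23130 differed by -2.83 ± 0.27 (limma adjusted p = 3.31e-06), its 3 leaf arrays lying close together and far above the flower arrays. AT5G18600 gave 4766, 2215 and 2253 in leaf, 80.0, 219, 101 and 122 in stem, and 1083, 729, 602 and 1054 in flower. It differed by -1.71 ± 0.33 (limma adjusted p = 0.00127), a 3.28-fold lower level in flower. Leaf replicate 1, the only growth chamber leaf array, was the highest leaf array of AT5G18600, and the lowest leaf array of AT1G23130.

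All 7 called loci kept their direction within the growth chamber and within the greenhouse. Their deposited leaf and flower signals did not overlap at any of these loci, so a split by site left little room for another direction. Of the 7, 5 had a log2 difference of at least 1 in both sites. AT2G04570 differed by 2.61 in the chamber and 2.22 in the greenhouse, and AT1G23130 by -2.49 and -3.16. The exceptions were AT5G45670, with 0.73 in the chamber and 1.66 in the greenhouse, and AT1G15260, with 1.08 and 0.92. Each chamber value rests on a single leaf array, and the sites of some flower arrays are uncertain, as stated above.

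A further 5 loci had an adjusted p under 0.05 with a log2 difference under 1, so that 12 of the 30 passed on p alone. AT5G17700 (0.81 ± 0.19) and AT2G43550 (0.63 ± 0.22) were higher in flower. AT1G64370 (-0.81 ± 0.22), AT5G65380 (-0.70 ± 0.21) and AT5G53420 (-0.56 ± 0.19) were lower in flower. On p alone, 7 of the 30 were higher in flower and 5 lower, beside 2782 and 2830 of all 17526 probe sets tested. AT1G62500, at 1.07 ± 0.41, missed the threshold with a limma adjusted p of 0.060, although its lowest flower array (1563) was above its highest leaf array (1173). It was called under several alternatives: without stem replicate 3 (1.07, adjusted p = 0.00641) or stem replicate 4 (1.07, adjusted p = 0.026), with only leaf and flower arrays (1.04, adjusted p = 0.00221), with growth site as a covariate (1.05, adjusted p = 0.0345), with a pseudocount of 100 (1.02, adjusted p = 0.00945) and with GapC scaling (1.61, adjusted p = 0.00259). The remaining 17 loci lay between -0.73 (AT1G23205) and 0.55 (AT1G73620) with adjusted p-values of 0.108 or more. The fit pooled the spread of all 3 tissues, so the stem arrays also entered these p-values. With only leaf and flower arrays, the limma adjusted p was 0.0191 at AT3G18250 (-0.585) and 0.0364 at AT1G73620 (0.537). It was 0.0426 at AT1G64360 (0.432) and 0.0441 at AT5G02940 (-0.462), all with a log2 difference under 1.

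**Figure D3:**
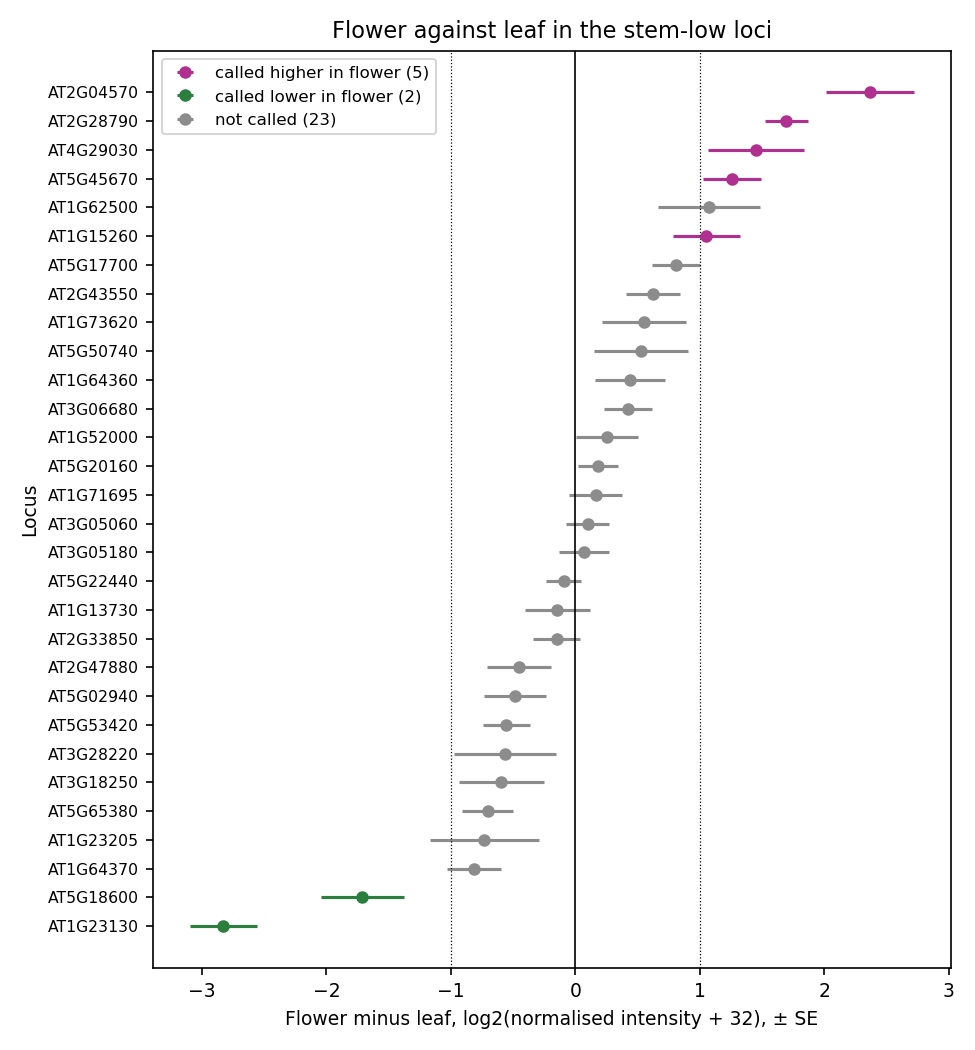
Flower minus leaf difference of each of the 30 loci on the log2 scale of normalised intensity + 32 (points, with bars for 1 SE), in order of size. Dotted lines mark a difference of 1 in either direction, and colours mark the 5 loci called higher in flower, the 2 called lower and the 23 not called.

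Growth site was compared to ask whether the level of these loci differed between greenhouse and chamber. Sites were those of the labels, which are uncertain for the stem and flower replicates named above. No locus was called between sites: limma with tissue as a covariate on 10 arrays, leaving out stem replicate 4, called 0 higher and 0 lower in the greenhouse, as it did over all 17393 probe sets tested (0.0% higher and 0.0% lower). At an unadjusted p under 0.05 there were 3 of the 30, beside 11.1% of all probe sets tested. These were AT1G15260 (-0.49 ± 0.18), AT5G65380 (0.38 ± 0.15) and AT3G05060 (0.28 ± 0.13), and the lowest adjusted p among the members was 0.381. No other tool was run on this contrast.

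The site difference could itself vary by tissue, and the clearest case was AT1G23205. It gave 242 in the growth chamber leaf and 1006 and 851 in the greenhouse leaves, 87.7, 99.0, 87.5 and 14.6 in stem, and 444, 372, 499 and 301 in flower. The log2 site difference was 1.73 in leaf and -0.09 in flower, and the difference between these was 1.81 ± 0.43 with a limma adjusted p of 0.215. Of the members 0 were called either way in this comparison, in which 0.109% of all probe sets were called higher and 0.00575% lower. At an unadjusted p under 0.05 there were 4 of the 30 (AT1G23205, AT5G65380, AT5G45670 and AT5G20160), beside 9.80% of all. The growth chamber leaf is 1 array, assumed in this fit to vary like the others, and the flower sites are as labelled.

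AT5G65380 (margin 2.13) also had its lowest leaf signal in the growth chamber, with 989 there and 1897 and 1953 in the greenhouse. Its stem signals were 339, 364, 410 and 374 and its flower signals 931, 875, 1018 and 918. Without leaf replicate 1, AT1G23205 (-1.30, adjusted p = 0.0216) and AT5G65380 (-1.003, adjusted p = 0.000489) were called lower in flower, which raised that count from 2 to 4. Leaf replicate 1 was the lowest leaf array in 18 of the 30 loci and the highest in 8. The rule read the leaf signals and the share over all probe sets was not taken, so these counts are a description only. Site and replicate cannot be told apart for leaf replicate 1.

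**Figure D4:**
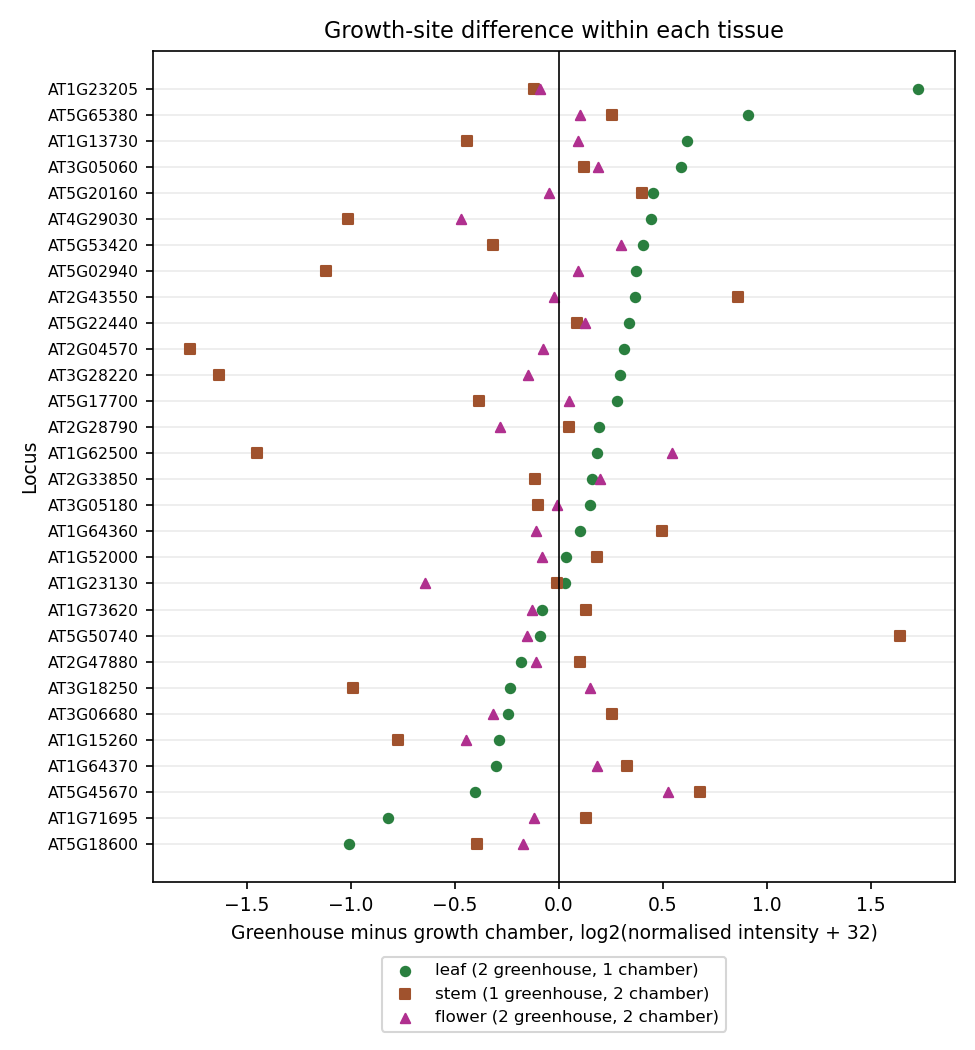
Greenhouse minus growth chamber difference of each locus within leaf (circles), stem (squares) and flower (triangles), on the log2 scale of normalised intensity + 32, ordered by the leaf value. Sites are as labelled and are uncertain for some stem and flower arrays. Stem replicate 4 is left out, leaf rests on 1 chamber array and stem on 1 greenhouse array. That stem array is replicate 3, with 3′ to 5′ ratios of 12.2 for actin and 13.05 for GAPDH. Site and RNA quality therefore cannot be told apart in stem. It read 33.7 at AT2G04570 and 116.5 at AT5G50740. Stem differences run from -1.78 at AT2G04570 to 1.64 at AT5G50740, leaf differences from -1.01 at AT5G18600 to 1.73 at AT1G23205, and flower differences from -0.64 to 0.54.

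The members were spread over all 5 chromosomes. Chromosome 1 held 10 (33.3%, beside 26.0% of all bare-locus probe sets), chromosome 2 held 5 (16.7%, beside 16.5%), chromosome 3 held 5 (16.7%, beside 20.5%), chromosome 4 held 1 (3.33%, beside 14.45%) and chromosome 5 held 9 (30%, beside 22.6%). The single locus on chromosome 4 was AT4G29030.

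AT1G64360 and AT1G64370 were direct neighbours, with 0 protein-coding genes between them. AT1G64360 gave 208, 210 and 234 in leaf, 10.9, 66.2, 57.9 and 51.3 in stem, and 376, 384, 355 and 360 in flower. AT1G64370 (margin 2.93) gave 1785, 1401 and 1426 in leaf, 254, 147, 248 and 167 in stem, and 871, 764, 745 and 1133 in flower. The neighbours shared the lower stem signal that the rule required and had the opposite order in the other organs, AT1G64360 with every flower array above every leaf array (0.44 ± 0.28, adjusted p = 0.263, not called) and AT1G64370 with every leaf array above every flower array (-0.81 ± 0.22, limma adjusted p = 0.0109, under the fold threshold). The gene before the pair, AT1G64355, gave 1245 to 1338 in leaf, 555 to 859 in stem and 451 to 643 in flower, so that its stem arrays were not the lowest. The gene after it, AT1G64380, gave 149 to 226 in leaf, 79.8 to 202.9 in stem and 91.0 to 182.6 in flower, and the 3 tissues overlapped.

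**Figure D5:**
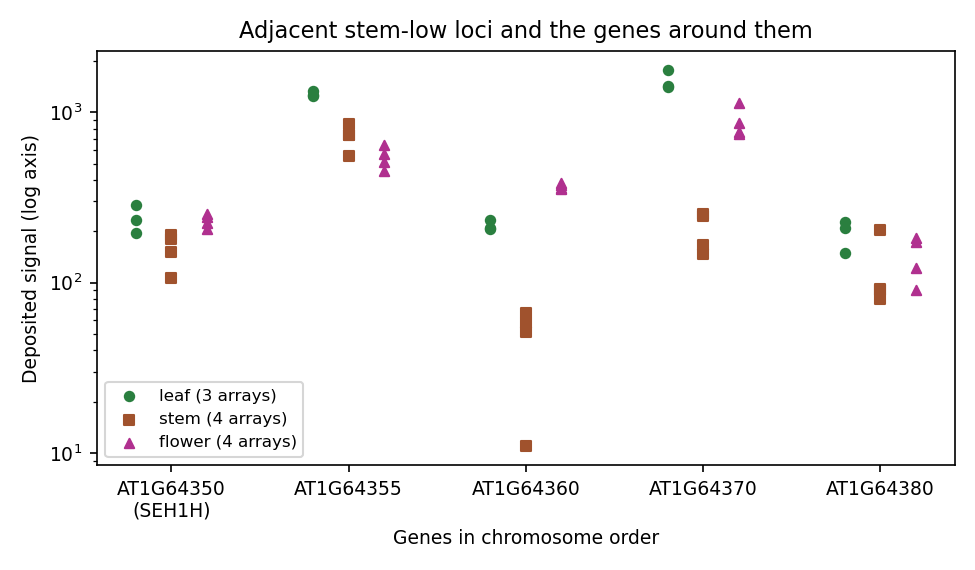
Deposited signal (log axis) of the adjacent loci AT1G64360 and AT1G64370 and of the measured genes around them, in chromosome order. Each point is 1 array of leaf (circles), stem (squares) or flower (triangles), and at the 2 members all other points lie at least 2 times above the stem squares. At AT1G64350 (SEH1H) the stem arrays (107 to 190.5) also lie below leaf (195.5 to 284) and flower (206 to 253), by a much smaller step.

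The next nearest members were AT1G23130 and AT1G23205, with 10 protein-coding genes between them, and AT3G05060 and AT3G05180, with 13. For 20 members at least 1 directly adjacent gene was measured by a named probe set, 32 such genes in all. The 30 of these that were not members had margins of at most 1.28.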

How the data were processed

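The deposited intensity values are per-probe-set signals that the authors made with Microarray Suite 5.0 at a target of 500, per the labels. The labels also state a scaling of GapC to 8500, which the deposited columns do not carry, since each has a 2% trimmed mean near 500. No detection calls were used.

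The rule was applied to the deposited intensity with a floor of 100. For tests, the 64 control probe sets were left out, values were quantile normalised over the arrays fitted, and limma 3.58.1 (R 4.3.3) fitted log2(value + 32), with eBayes moderation along an intensity trend. Probe sets needed a normalised value of at least 100 in at least 3 arrays. Calls needed a Benjamini-Hochberg adjusted p under 0.05 over all probe sets tested, two-sided, and an absolute log2 difference of at least 1. Flower and leaf were compared in 1 fit of all 11 arrays, and growth sites in 10 arrays. The site difference by tissue and the within-site values were chosen after seeing the data. The number of arrays limits the precision. The fit was tested, without the minimum fold, on simulated data in which only planted probe sets differed between tissues. The call rule with its minimum fold was not tested in this way.

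All members are named, because the rule for named genes took every member of a set of 30 or fewer. The members and lists were chosen with earlier results of these data known. Names came from the platform table, and chromosomes and gene order from the RefSeq gene table. Promoter motifs and protein comparisons were planned and not run, and sequences were not used here. The alternatives were other scalings, pseudocounts, filters, call rules, covariates, a replicate block and leaving out each array.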

Additional observations from a re-analysis of the deposited data

Results flagged for a closer look

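Within the 4 arrays of a tissue, 6 of 60 groups examined (30 loci in stem and in flower) held an array far from the other 3. Chance alone flags about 1 in 20 groups of normally distributed values, but the rule chose the members on these same arrays, so the count is a description and not a test. In stem, AT4G29030 was highest on replicate 1 at 102.8, with the next array at 25.4, and AT5G50740 was highest on replicate 3 at 116.5, with the next at 21.4. AT1G23205 was lowest on stem replicate 4 at 14.6, with the next array at 87.5. Apart from 102.8 and 116.5, these stem values lie under the floor of 100 that the rule applied. In flower, AT1G23130 was highest on replicate 1 at 1417.1, with the next at 697.7. AT3G18250 was lowest on flower replicate 1 at 226.1, with the next at 284.6, and this array set its margin. AT5G53420 was lowest on flower replicate 2 at 455.0, with the next at 643.4, and this array too set the margin. No explanation was tested.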

How the results depend on the processing

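The number of loci that met the rule was 12 with GapC scaling (all among the 30), 92 at a threshold of 1.5 and 7 at a threshold of 3. It was 25 with quantile-normalised values, 40 with a floor of 50, 22 with a floor of 200 and 31 to 39 when 1 array was left out, which can only loosen the rule. The count higher in flower was 12 with GapC scaling and 3 with median centring, and 4 to 6 without each array in turn. The count lower in flower was 4 with median centring and 5 with no minimum fold, and 2 to 4 without each array in turn, with 4 only without leaf replicate 1. In these scalings the median log2 difference of all probe sets was 0.695 (GapC), 0.143 (trimmed mean only) and -0.141 (median centring), against -0.021 as reported. Over all probe sets GapC scaling called 5083 higher and 595 lower, trimmed mean scaling 2046 and 1418, and median centring 1358 and 2110, against 1608 and 1625. With no minimum fold they were 2782 and 2830. The site counts were 0 among the members under every alternative run.

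Of 690 alternative values for single loci, 643 kept their direction and side of the threshold, 21 gained a call, 8 lost one and 18 changed sign, none of these 18 at a called locus. GapC scaling gave 0.343 at AT2G33850, 0.120 at AT3G28220, 0.627 at AT1G13730, 0.157 at AT5G02940, 0.031 at AT1G23205, 0.202 at AT3G18250, 0.133 at AT5G53420, 0.269 at AT2G47880 and 0.278 at AT5G22440. All 9 lie below that scaling's shift of all probe sets. Median centring gave -0.212 at AT1G71695, -0.179 at AT3G05180, -0.228 at AT3G05060 and -0.426 at AT5G20160. Trimmed mean scaling gave 0.054 at AT1G13730 and -0.113 at AT5G20160. Leaving out 1 array changed the sign at 3 loci. AT3G05060 ran from -0.094 (without leaf replicate 1) to 0.227, AT1G13730 from -0.349 to 0.043 (without leaf replicate 2), and AT3G05180 from -0.024 (without flower replicate 3) to 0.17. The cause was not tested.

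The labels number replicates without saying that a number is shared across tissues. With the replicate number as a block, 4 loci were called higher in flower and 2 lower, AT1G15260 (0.979) falling under the fold threshold. In their deviations from the tissue means, same-numbered arrays correlated at -0.161, -0.0906 and 0.0245 between leaf and flower, at -0.0691, -0.0956 and -0.0251 between leaf and stem, and at 0.106, 0.15, 0.0893 and 0.118 between stem and flower. Since not every pair was above 0.1, the numbers were not taken as pairs. Leaf differs from the other organs in harvest day and, at some numbers, in labelled site. The leaf pairs therefore cannot decide whether stem and flower numbers were pairs. Differently numbered stem and flower arrays correlated at -0.176 to 0.089. Promoter motifs and protein comparisons were not run.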
